A study of Mus musculus with 6 samples.

Results

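The clustered protocadherins are the genes of the Pcdh alpha, beta and gamma clusters, which lie one after another on mouse chromosome 18. Their members were taken from the table by symbol, as every row named *Pcdha*, *Pcdhac*, *Pcdhb*, *Pcdhga*, *Pcdhgb* or *Pcdhgc* followed by a number. This gave 58 of 34745 genes: 14 in the alpha cluster (18:36930184-37187661 on mm10), 22 in the beta cluster (18:37264938-37524479) and 22 in the gamma cluster (18:37661793-37841873). The libraries were made from total RNA of whole cerebral cortex, taken from mouse pups on postnatal day 8, and sequenced for gene expression. The 3 control samples had the genotype Pen-2 F/F, with both alleles of the gene for PEN-2 floxed. The 3 samples called Pen-2 cKO had the genotype Pen-2 F/F; hGFAP-Cre. They carried the same floxed alleles and, in addition, a transgene that expresses Cre recombinase from a human GFAP promoter, which is active in radial glia that give rise to cortical neurons as well as to astrocytes. Only the cKO samples have the transgene, so its own effect and that of the deletion cannot be told apart. Nothing in the labels says that every sample came from its own mouse, and the spread behind each p-value may therefore be technical.

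Clustered protocadherins are cadherin-type adhesion proteins of the neuronal surface. Each variable gene of the alpha and gamma clusters has its own promoter and a large first exon for the extracellular and transmembrane parts, spliced to constant exons that all members of that cluster share, whereas a beta gene is encoded by a single large exon. Single neurons express different small sets of variable members, chosen at their promoters by a process that involves CTCF, cohesin and DNA methylation, and like sets on neighbouring processes of one neuron allow self-recognition and self-avoidance. The C-type members (*Pcdhac1*, *Pcdhac2*, *Pcdhgc3*, *Pcdhgc4* and *Pcdhgc5*) are not chosen in this way and are expressed more broadly. The proteins are shed by ADAM10 and then cut within the membrane by γ-secretase, the protease of which PEN-2 is a subunit. The RNA data measure none of this cleavage, but they show whether the genes of these substrates differ in level when the gene for PEN-2 is deleted.

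*Psenen*, which encodes PEN-2, was at 6.35, 6.86 and 7.32 FPKM (fragments per length of exon and per depth of the library) in control replicates 1, 2 and 3 and at 3.56, 3.90 and 4.03 FPKM in cKO replicates 1, 2 and 3. It fell, with a log2 difference of -0.82 (SE 0.09, limma adjusted p = 0.00441). The deposited FPKM imply depths of 20254600 to 24876200 fragments in the control and 25130000 to 26817100 in the cKO libraries. All 58 members have values that are whole fragments at these depths, to within 0.004 of a fragment, and together they took 1194 to 1310 FPM (fragments per 1000000 fragments of a library, with no scaling for length). cKO replicate 3 stood apart in its choroid plexus and ependyma markers, whose 10 genes summed to 23.1 FPKM there and to 7.62 to 10.4 FPKM in the other 5 libraries.

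None of the protocadherin genes passed the test. A gene was tested if it had at least 0.5 FPKM in at least 3 libraries, which 56 of the 58 members did, and it was called at a limma adjusted p under 0.05 over all 14147 genes tested. Of all tested genes 5.53% were called (3.67% higher and 1.87% lower in cKO cortex), against 0 of the 56 members. An unadjusted p under 0.05 was found for 3 members, *Pcdhac2*, *Pcdha10* and *Pcdha5*, all lower in cKO cortex, and for 22.9% of all genes. Limma-voom on the recovered fragments, added after the data were seen, also called 0 of the 56.

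The fitted differences of the members were centred near 0. Their median log2 difference (cKO minus control, on log2(FPKM + 0.1)) was 0.01, with 29 members above and 27 below 0, beside a median of 0.07 over all tested genes. By cluster the median was -0.06 for alpha, 0.03 for beta and -0.01 for gamma. A difference within 0.5 log2 units was found in 44 of the 56 members (78.6%) and in 88.7% of all genes. Of the 12 members outside it, 11 had at least 1 library over 5 times, or under 1/3 of, their median library; the exception was *Pcdha10*. The 95% interval, unadjusted, lay within 1 log2 unit of 0 for 43 members, so for those a doubling or halving is outside the interval, while the distance from the estimate to either bound had a median of 0.38 over the members and 0.29 over all genes.

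**Figure D1:**
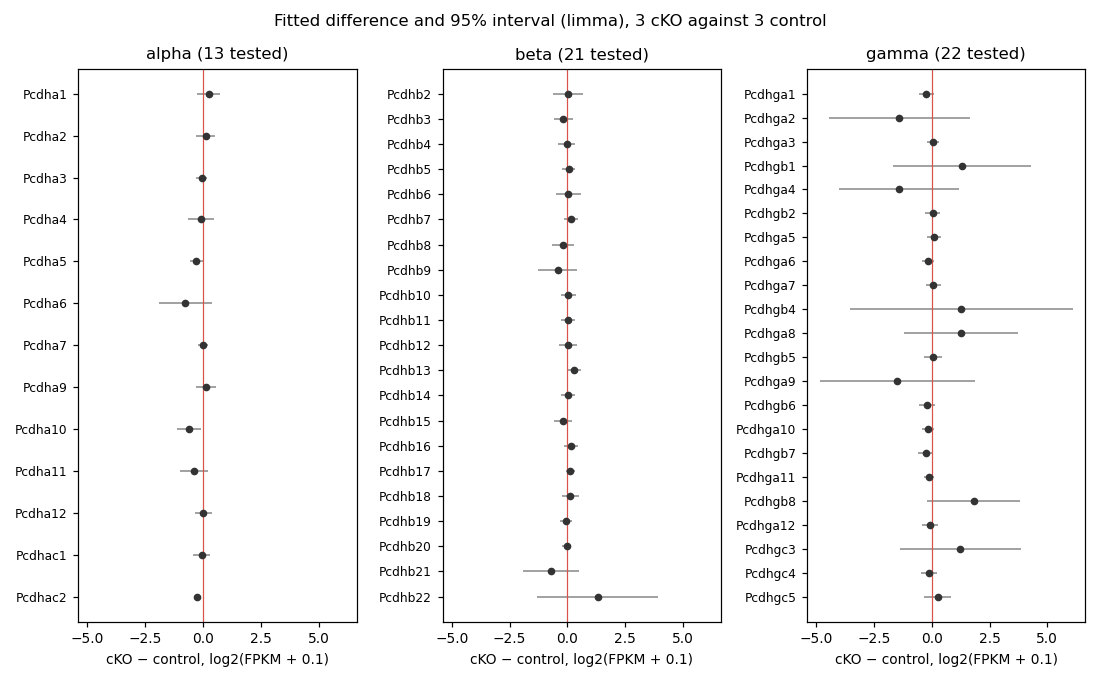
Fitted log2 difference between 3 cKO and 3 control libraries (points) with its unadjusted 95% interval (lines, limma) for the 56 tested members, in 5′ to 3′ order within each cluster; the red line marks 0. Most intervals are short and cross 0, and the long ones belong to members with an extreme value in 1 or more libraries, such as *Pcdhgb4*, *Pcdhga9* and *Pcdhga2*.

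The alpha proteins carry a shared cytoplasmic domain that binds the focal adhesion kinases and the WAVE complex of actin regulators. *Pcdhac2* (ENSMUSG00000102697, 18:37143503-37187657), the most 3′ of the cluster and known as the isoform of serotonergic axons, had the highest level of the 14 alpha members. Its values were 14.2, 13.8 and 13.5 FPKM in control replicates 1, 2 and 3 and 12.1, 11.2 and 11.7 FPKM in the cKO replicates. All 3 cKO libraries were below all 3 controls, with little spread inside either group: the means were 13.8 ± 0.342 and 11.6 ± 0.463 FPKM (SD, n = 3). The log2 difference of -0.25 (SE 0.06, 95% interval -0.39 to -0.10) had an adjusted p of 0.0635, the smallest of any member and just above the threshold. It passed with median-ratio scaling (-0.32, adjusted p = 0.0306) and upper-quartile scaling (-0.31, adjusted p = 0.0344), and over all 16 alternatives it stayed below 0, with adjusted p from 0.0306 to 0.206.

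*Pcdhac1*, the other alpha C-type gene (ENSMUSG00000103255, 18:37090013-37187657), was expressed at a much lower level, 1.10, 0.875 and 1.15 FPKM in the controls and 0.999, 1.03 and 0.943 FPKM in cKO libraries. The groups overlapped, and the log2 difference was -0.06 (95% interval -0.43 to 0.31). Among the variable alpha genes *Pcdha12* was highest, at 5.65, 4.52 and 6.26 FPKM in the controls and 6.51, 5.53 and 4.59 FPKM in cKO cortex, with overlapping groups and a log2 difference of 0.02 whose sign changed with scaling. *Pcdha9*, at 2.995 to 4.97 FPKM in the controls and 3.90 to 4.52 FPKM in cKO libraries, and *Pcdha1*, at 0.566 to 0.962 and 0.768 to 0.949 FPKM, likewise overlapped.

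*Pcdha10* and *Pcdha5* were the variable alpha genes with the clearest differences, both lower in cKO cortex without passing the adjusted test. *Pcdha10* (ENSMUSG00000007440, 18:37005203-37187657, listed in the deposited table under a second *Pcdha11* symbol) was at 2.24, 1.77 and 1.55 FPKM in the controls and 1.33, 1.43 and 0.856 FPKM in cKO replicates 1, 2 and 3. Its groups did not overlap, and the log2 difference was -0.60 (SE 0.22, adjusted p = 0.170, 0.121 to 0.339 over the alternatives). *Pcdha5* (ENSMUSG00000103092, 18:36960440-37187657) was at 4.55, 5.28 and 5.64 FPKM in the controls and 4.56, 4.22 and 3.78 FPKM in cKO libraries, with the lowest control and the highest cKO value nearly equal. Its log2 difference was -0.29 (SE 0.12, adjusted p = 0.188). *Pcdha6* (ENSMUSG00000103707, 18:36967631-37187657) had the largest fitted decrease, -0.77, but it rested on cKO replicate 1, at 0.414 FPKM beside 1.67 to 2.10 FPKM in the other 5 libraries, and without that library the difference was -0.16 (adjusted p = 0.677).

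Summed over the alpha cluster, the difference was small and in the same direction in every cKO library. The 14 genes took 304.6, 302.6 and 306.0 FPM in control replicates 1, 2 and 3 and 279.4, 273.7 and 265.6 in cKO replicates 1, 2 and 3. The control libraries differed little and all 3 cKO libraries were below them, with means of 304.4 ± 1.71 and 272.9 ± 6.94 FPM (SD, n = 3), 10.4% lower. *Pcdhac2* was not the whole of it: the other 13 genes took 221.0, 221.4 and 226.4 FPM in control and 208.2, 208.0 and 196.9 in cKO libraries. The summed FPKM of the cluster had a cKO to control ratio of 0.908, and of 0.866 to 0.942 with the other scalings. With equal sums per library (ratio 0.942) the highest cKO library overlapped the controls. This sum was not tested, since the members were chosen with results known.

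Markers of neurons are given beside the alpha sum, since these genes are expressed mainly by neurons. The 14 pan-neuronal marker genes summed to 2617 to 2704 FPKM in the controls and 2262 to 2406 FPKM in cKO libraries. Of these, *Tubb3*, the neuronal β-tubulin, fell from 1404 ± 41.7 to 1141 ± 45.1 FPKM (log2 difference -0.30, adjusted p = 0.0162), and *Gad1*, the GABA-synthesizing enzyme, rose from 14.6 ± 0.745 to 22.1 ± 3.05 FPKM (0.58, adjusted p = 0.0214); the other 12 did not pass, and the median of the 14 was -0.07. Most of the fall in the sum was *Tubb3*. The other 13 genes summed to 1201, 1226 and 1345 FPKM in the controls. In cKO replicates 1, 2 and 3 they summed to 1214, 1298 and 1136 FPKM, and the groups overlapped. *Stmn3* and *Slc17a7*, at means of 637 and 209 FPKM in the controls, made up most of that 13-gene sum. *Rbfox3* (log2 difference -0.22, limma adjusted p = 0.0941) and *Nefm* (-0.50, limma adjusted p = 0.0525) had every cKO library below every control. *Gad2* (0.39, limma adjusted p = 0.110), like *Gad1*, had every cKO library above every control. Markers of other cells moved further: 8 of 12 astrocyte markers fell, 11 of 13 oligodendrocyte lineage markers, 9 of 10 proliferation markers, 4 of 11 vascular and meningeal markers and 1 of 9 microglia markers rose, and no marker of any list was at 0 in every library. Over all tested genes the shares called were 3.67% higher and 1.87% lower. In bulk cortex fewer cells of a type and less RNA per cell cannot be told apart, and the part of these shifts in the alpha sum was not tested.

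**Figure D2:**
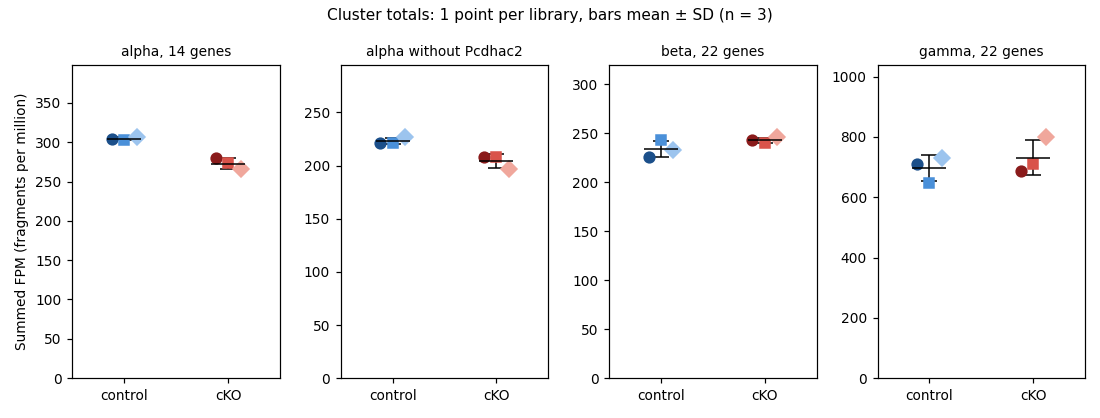
FPM summed over each cluster, 1 point per library (control blue, cKO red; circle, square and diamond for replicates 1, 2 and 3) with mean ± SD bars, n = 3, each axis starting at 0. The 3 cKO alpha sums (265.6 to 279.4) lie below the 3 control sums (302.6 to 306.0), and the beta and gamma groups overlap.

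The beta genes make proteins without a shared constant domain, and for most of them few short stretches are found in another member: a median of 0.20% of the 100-base windows of a beta transcript recurred in another clustered protocadherin, against 55.2% for alpha and 44.1% for gamma. Of the 21 tested beta genes, 18 had a 95% interval within 1 log2 unit of 0. *Pcdhb20* (ENSMUSG00000046191, 18:37504264-37507822) was the highest, at 6.53, 6.40 and 6.11 FPKM in the controls and 6.42, 5.69 and 6.51 FPKM in cKO replicates. The groups overlapped, with a log2 difference of -0.03 (95% interval -0.23 to 0.16). *Pcdhb7*, next in mean level, was at 4.44 to 5.53 FPKM in the controls and 4.63 to 5.89 FPKM in cKO libraries (0.15, -0.16 to 0.45).

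For *Pcdhb13* and *Pcdhb17* all cKO libraries lay above all controls. *Pcdhb17* (ENSMUSG00000046387, 18:37484795-37489454) was at 3.98, 4.18 and 4.24 FPKM in the controls and 4.70, 4.37 and 4.57 FPKM in cKO libraries, a log2 difference of 0.13 (SE 0.08, adjusted p = 0.397). *Pcdhb13* (ENSMUSG00000047307, 18:37442500-37446209) was at 1.56, 1.48 and 1.35 FPKM in the controls and 1.96, 1.85 and 1.67 FPKM in cKO libraries, a log2 difference of 0.30 (SE 0.13, adjusted p = 0.221). Neither passed the test. Over the 56 tested members 3 had all cKO libraries higher (*Pcdhb13*, *Pcdhb17* and *Pcdhgb8*), as 21.5% of all tested genes did, and 3 had all cKO libraries lower (*Pcdhac2*, *Pcdha10* and *Pcdhga1*), as 8.17% did.

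*Pcdhb9* (ENSMUSG00000051242, 18:37400855-37403909) differed between cKO libraries more than between the groups. It was at 4.36, 4.27 and 3.53 FPKM in the controls and at 2.10, 2.26 and 5.64 FPKM in cKO replicates 1, 2 and 3, so that cKO replicate 3 was above every control and the other two were below every control. The log2 difference was -0.42 (SE 0.36, adjusted p = 0.549) with all libraries and -0.86 (adjusted p = 0.0197) without cKO replicate 3. That library also had the high choroid plexus markers, and a link of these to *Pcdhb9* was not tested.

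*Pcdhb21* and *Pcdhb22* overlap by 455 exonic bases, and each had 1 isolated low value. *Pcdhb22* (ENSMUSG00000073591, 18:37517871-37524479) was at 0.0990 FPKM, 19 fragments, in control replicate 1 and at 2.96 to 3.22 FPKM in the other 5 libraries. *Pcdhb21* (ENSMUSG00000044022, 18:37513621-37518325) was at 0.364 FPKM, 43 fragments, in cKO replicate 1 and at 1.37 to 1.99 FPKM elsewhere. The fitted differences of 1.32 and -0.71 came from these values: without the library concerned they were -0.03 and -0.07. In control replicate 1 *Pcdhb21* was at 1.99 FPKM, its highest value, and in cKO replicate 1 *Pcdhb22* was at 2.96 FPKM. The pair together took 10.2 FPM in control replicate 1 and 28.0 in cKO replicate 1, against 34.0 to 37.5 in the other 4 libraries. A link of the low values to the shared bases was not tested.

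Summed over the beta cluster, the groups overlapped. The 22 genes took 226.0, 242.8 and 232.8 FPM in control and 242.6, 240.4 and 245.7 in cKO replicates 1, 2 and 3. The means were 233.9 ± 8.42 and 242.9 ± 2.66 (SD, n = 3), a difference of 3.85%, about the spread of the controls. The sign of the difference in summed FPKM turned with scaling: the ratio was 1.02 as deposited and 0.970 and 0.977 with median-ratio and upper-quartile scaling. Without *Pcdhb21* and *Pcdhb22* the other 20 genes took 195.4 to 215.8 FPM in control and 203.8 to 214.6 in cKO libraries. *Pcdhb1* at 3 to 13 fragments per library and the alpha gene *Pcdha8* at 5 to 35 were the 2 members under the expression filter, and neither passed when the filter was removed (adjusted p = 0.633 and 0.369).

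**Figure D3:**
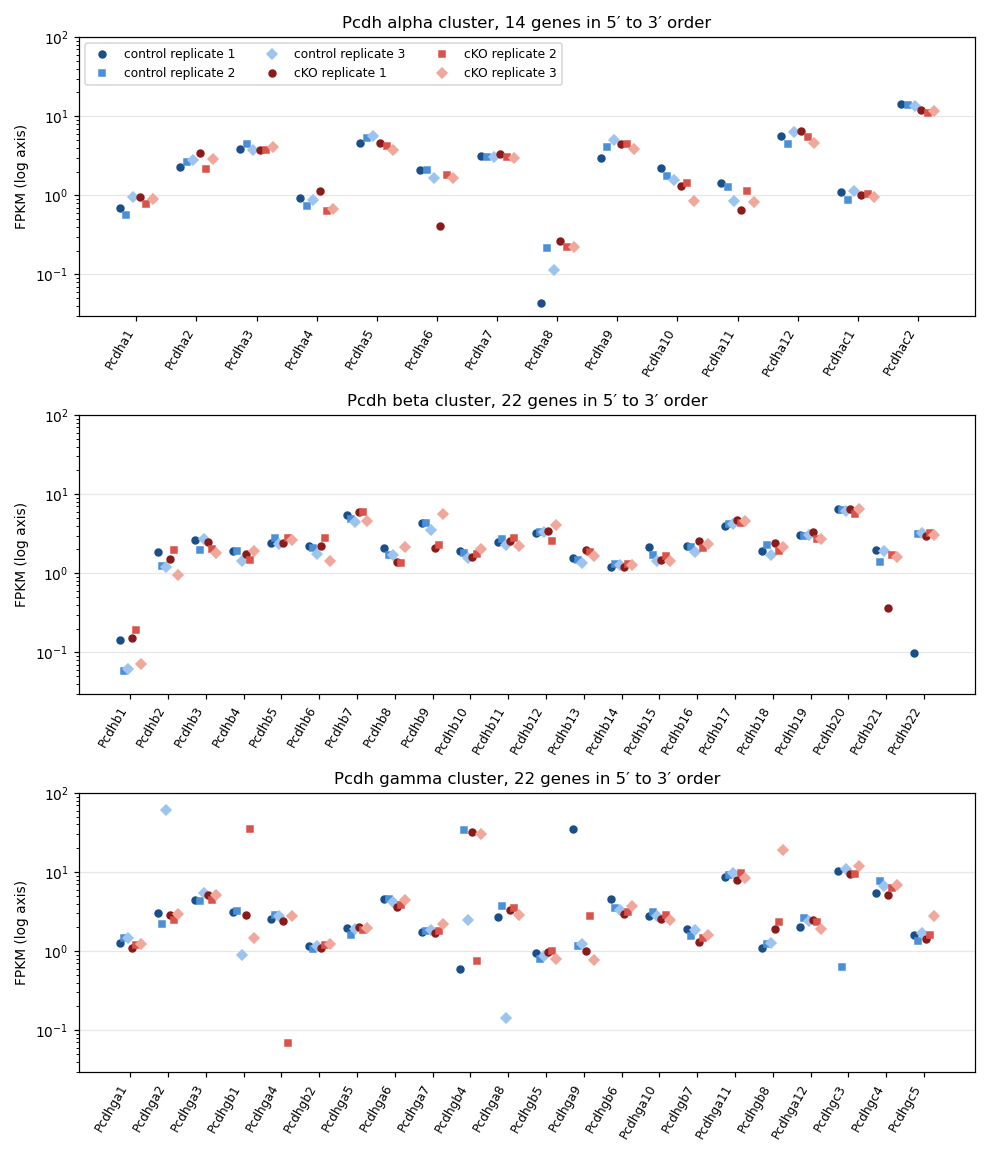
FPKM of the 58 members in the 6 libraries on a log axis, 1 point per library (control blue, cKO red; circle, square and diamond for replicates 1, 2 and 3), in 5′ to 3′ order within each cluster. Points of 1 gene mostly lie close together in alpha and beta, while in gamma single libraries reach 19.1 to 61.7 FPKM in *Pcdhga2*, *Pcdhgb1*, *Pcdhgb4*, *Pcdhga9* and *Pcdhgb8*, and isolated low points are seen in all 3 clusters.

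The gamma cluster, whose proteins are needed for the survival of many interneurons and for the shape of dendrites, had a variable gene in each library that took 31.8% to 43.3% of all gamma fragments. The gene that did so changed from library to library. In control replicate 1 it was *Pcdhga9*, at 35.5 FPKM (5962 fragments). In control replicate 2 it was *Pcdhgb4*, at 33.6 FPKM (5680 fragments), and in control replicate 3 *Pcdhga2*, at 61.7 FPKM (7201 fragments). *Pcdhgb4* led again in cKO replicates 1 and 3, at 32.3 and 30.4 FPKM (6773 and 6813 fragments), and *Pcdhgb1* in cKO replicate 2, at 34.8 FPKM (7603 fragments). In cKO replicate 3 *Pcdhgb8* was also high, at 19.1 FPKM (2368 fragments). The genes that led in 1 library were low in others of the same genotype: *Pcdhgb4* was at 0.587 and 2.46 FPKM in control replicates 1 and 3 and at 0.744 FPKM in cKO replicate 2, and *Pcdhga9* at 0.783 to 2.77 FPKM outside control replicate 1.

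Few genes of the table showed values of this kind. Among the 56 tested members 4, all of them gamma genes, had a highest library over 5 times their median library, against 0.177% of all tested genes. A lowest library under 1/3 of the median was found in 8 members, 5 gamma, 2 beta and 1 alpha, against 1.77% of all genes. These levels were chosen after the values were seen and describe the scatter only. The high values of the 5 genes named above rest on 2368 to 7603 assigned fragments each, not on a few. Such counts do not cover errors in assigning fragments of shared exons, which were not tested.

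The 5 genes share 1 feature of the annotation. All members of the gamma cluster end in the same 3 constant exons, but in GENCODE M21 the last exon of *Pcdhga2*, *Pcdhgb1*, *Pcdhgb4*, *Pcdhga9* and *Pcdhgb8* ends at position 37841870, and that of the other 17 genes at 37841873, 3 bases further. Every gene with the earlier end exceeded 15 FPKM in at least 1 library, and no gene with the later end did, the highest of those values being 12.1 FPKM. The sum of the 5 genes was similar in all libraries, at 326.0, 332.2 and 333.0 FPM in control replicates 1, 2 and 3 and 323.8, 341.6 and 374.5 in cKO replicates 1, 2 and 3, or 45.5% to 51.2% of the gamma fragments. This grouping was noticed in the data, and how the counting program assigned fragments of the 2119 bases of shared constant exons is not given in the sources used here.

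**Figure D4:**
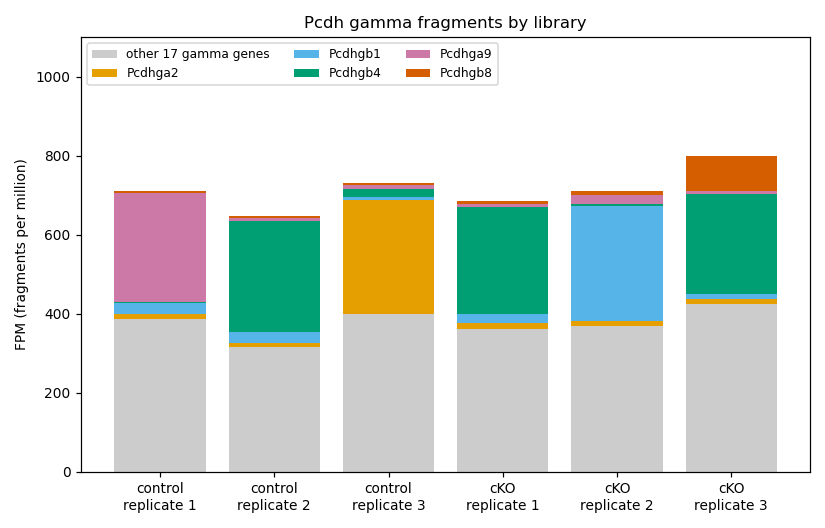
Gamma-cluster FPM in each library, stacked for the 5 genes whose last exon ends 3 bases earlier (colours) and the other 17 genes together (grey). The coloured part is similar in height in every library (323.8 to 374.5), but a different gene fills most of it: *Pcdhga9*, *Pcdhgb4* and *Pcdhga2* in control replicates 1, 2 and 3, and *Pcdhgb4*, *Pcdhgb1* and *Pcdhgb4* in cKO replicates 1, 2 and 3.

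The fitted differences of these genes had wide intervals, with a median distance of 3.05 log2 units from the estimate to either bound. *Pcdhga2* (ENSMUSG00000103332, 18:37668953-37841870) was at 2.998, 2.21 and 61.7 FPKM in the controls and 2.88, 2.48 and 2.97 FPKM in cKO libraries, a log2 difference of -1.41 (SE 1.24) that was 0.10 without control replicate 3. *Pcdhga9* (ENSMUSG00000102440, 18:37736936-37841870) was at 35.5, 1.18 and 1.24 FPKM in the controls and 0.9998, 2.77 and 0.783 FPKM in cKO libraries, a difference of -1.48 (SE 1.37) that was 0.10 without control replicate 1. *Pcdhgb1* (ENSMUSG00000103037, 18:37680233-37841870) was at 3.15, 3.18 and 0.904 FPKM in the controls and 2.88, 34.8 and 1.45 FPKM in cKO libraries, a difference of 1.31 (SE 1.21) that was -0.03 without cKO replicate 2. For these 3 genes the direction was that of a single library. *Pcdhgb4* (ENSMUSG00000103585, 18:37720369-37841870), high in 1 control and 2 cKO libraries, had a difference of 1.27 with an interval from -3.54 to 6.09, and of 0.02 without control replicate 1 to 3.01 without cKO replicate 2.

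*Pcdhgb8* (ENSMUSG00000103081, 18:37761801-37841870) had all 3 cKO libraries above all 3 controls. GENCODE M21 annotates this gene as a polymorphic pseudogene and every other member as protein coding. Its fragments came out whole with the length of 1 transcript, not with that of all distinct exons. It was at 1.10, 1.23 and 1.254 FPKM in the controls and at 1.93, 2.37 and 19.1 FPKM in cKO replicates 1, 2 and 3. With all libraries the log2 difference was 1.83 (SE 0.83, 95% interval -0.18 to 3.83, adjusted p = 0.258). Without cKO replicate 3 it was 0.79 (SE 0.16, adjusted p = 0.0449), smaller but past the threshold, and it was above 0 under all 16 alternatives.

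The authors' deposited table, whose test is not given in the sources used here, calls 3 of the 58 members, and all 3 are among these 5 genes. It gives *Pcdhga2* as down (q-value 0.0213), *Pcdhga9* as down (q-value 0.0385) and *Pcdhgb8* as up (q-value 0.00219), in a table of 34745 genes of which 1.71% are called up and 0.322% down. In the per-library values the 2 decreases each rest on 1 control library, and the increase rests mainly on cKO replicate 3.

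Of the other 17 gamma genes, *Pcdhga11* (ENSMUSG00000102742, 18:37755731-37841873) was the highest variable member. It was at 8.71, 9.25 and 9.68 FPKM in the controls and 7.93, 9.62 and 8.34 FPKM in cKO libraries, with overlapping groups and a log2 difference of -0.10 (95% interval -0.31 to 0.12). *Pcdhga1* was the only gamma gene with all cKO libraries lower, at 1.28, 1.46 and 1.45 FPKM in the controls and 1.11, 1.21 and 1.22 FPKM in cKO cortex (-0.23, SE 0.13, adjusted p = 0.370). Isolated low values were seen here too. *Pcdhga4*, which shares 1038 exonic bases with *Pcdhgb1*, was at 0.0694 FPKM (10 fragments) in cKO replicate 2, the library in which *Pcdhgb1* led, and at 2.41 to 2.87 FPKM elsewhere. *Pcdhga8*, which shares 108 exonic bases with *Pcdhgb4*, was at 0.144 FPKM (17 fragments) in control replicate 3 and at 2.72 to 3.74 FPKM elsewhere. *Pcdhgb4* did not lead in that library and was at 2.46 FPKM there. Where *Pcdhgb4* led, in control replicate 2 and cKO replicates 1 and 3, *Pcdhga8* was at 3.74, 3.35 and 2.84 FPKM. The difference of *Pcdhga4* was -0.06 without cKO replicate 2, and that of *Pcdhga8* was 0.02 without control replicate 3.

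The gamma C-type genes differed in level. *Pcdhgc3* (ENSMUSG00000102918, 18:37806364-37841873), whose protein binds Axin1 and promotes dendrite branching, was at 10.3, 0.637 and 11.1 FPKM in control replicates 1, 2 and 3 and at 9.59, 9.45 and 12.1 FPKM in cKO replicates 1, 2 and 3. Control replicate 2 stood alone with 123 fragments. The log2 difference was 1.24 (SE 1.06, adjusted p = 0.555) with it and -0.05 (95% interval -0.36 to 0.25) without it. The antisense gene *BC037039*, which overlaps the first exon of *Pcdhgc3* by 1559 bases, was at 2.19 FPKM in that library and at 1.13 to 1.95 FPKM in the others. Since the strand setting of the counting is not given, reads within those 1559 bases cannot be assigned to either gene. A link to the low *Pcdhgc3* value was not tested.

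*Pcdhgc4* (ENSMUSG00000023036, 18:37815079-37841873, listed in the deposited table under a second *Pcdhga8* symbol), the isoform needed for the survival of cortical interneurons, was at 5.46, 7.70 and 6.69 FPKM in the controls and 5.10, 6.30 and 6.84 FPKM in cKO libraries. The groups overlapped, with a log2 difference of -0.12 (95% interval -0.48 to 0.25). *Pcdhgc5* (ENSMUSG00000102543, 18:37819513-37841873), a late-onset isoform that binds GABA-A receptors, was at 1.62, 1.34 and 1.70 FPKM in the controls and 1.43, 1.59 and 2.82 FPKM in cKO libraries, with cKO replicate 3 alone above the controls (0.26, 95% interval -0.33 to 0.84). Its difference was -0.03 without cKO replicate 3, 0.16 without control replicate 2 and 0.44 without cKO replicate 1. Over all 5 C-type genes, 0 were called, 2 differences were above and 3 below 0.

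The gamma cluster took the most fragments of the 3, and its groups overlapped. The 22 genes summed to 711.5, 648.2 and 731.6 FPM in control and 686.1, 711.2 and 798.4 in cKO replicates 1, 2 and 3, with means of 697.1 ± 43.5 and 731.9 ± 58.9 (SD, n = 3). Without *Pcdhgc3* and the 5 genes with the earlier end, the other 16 took 286.9, 310.0 and 293.1 FPM in control and 271.0, 279.5 and 308.7 in cKO libraries.

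Levels are comparable between genes only per length, and the length behind the deposited FPKM counts exons that overlap between transcripts more than once, which lowers the value of 21 members by up to 2.60-fold. Rescaled to merged exon length, the median library had 23.6 FPKM of *Pcdhgb4*, the highest of the 58 members. The deposited values of that gene ranged from 0.587 to 33.6 FPKM. For other named members the median library had 17.3 FPKM of *Pcdhgc3*, 12.8 of *Pcdhac2*, 9.61 of *Pcdhgc4* and 8.98 of *Pcdhga11*. It had 6.41 FPKM of *Pcdhb20*, 5.59 of *Pcdha12*, 2.35 of *Pcdhgc5* and 1.01 of *Pcdhac1*. Of the 5 C-type genes 3 were thus above every beta and every variable alpha gene, and 2 were below the 2.60 FPKM median of the 58 members. Levels of alpha and gamma genes also depend on how fragments of shared exons were assigned.

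Besides the members, 19 other rows of the table overlap the 3 clusters, and 5 of them were at 0 in every library. *Gm42416*, *Gm37013* and *Gm37388*, annotated as coding transcripts that run from alpha first exons to gamma constant exons, were at 0, as were the antisense genes *Gm38097* and *Gm37118*. Only *BC037039* and *Gm38182*, a gene that overlaps *Pcdhgc5*, reached 1 FPKM in a library. The remaining *Gm10545*, *Gm18150*, *Gm37751*, *Gm37753*, *Gm10544*, *Gm19035*, *Gm36858*, *Gm38225*, *Gm37446*, *Gm37165*, *Gm26672* and *Gm29994* stayed below it.

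The genes that set protocadherin choice did not pass the test. Of 21 tested genes for CTCF, cohesin, DNA methylation and silencing, 0 were called, where 5.53% of all tested genes were. Their median log2 difference was 0.09. *Rad21*, the cohesin subunit, was at 36.1 ± 1.38 FPKM in the controls and 40.1 ± 1.25 FPKM in cKO cortex (0.15, SE 0.05, adjusted p = 0.146), and *Trim28*, a corepressor that acts with the histone methyltransferase SETDB1, was at 25.8 ± 1.45 and 27.8 ± 1.92 FPKM (0.11, adjusted p = 0.422). Those 2 were the most abundant of the list. *Ctcf* itself, chosen here for its role, was at 10.1, 10.006 and 9.26 FPKM in the controls and 9.94, 10.3 and 11.02 FPKM in cKO libraries, with overlapping groups. Nearest to the threshold were *Setdb1*, at 7.21 to 7.96 FPKM in control and 8.71 to 9.53 FPKM in cKO libraries (limma adjusted p = 0.0810), and *Dnmt1*, at 14.9 to 16.2 and 17.5 to 18.6 FPKM (limma adjusted p = 0.0912). Both had all cKO libraries above all controls, as 21.5% of all tested genes did.

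Among 24 binding partners and intracellular effectors 3 rose, 0 fell and 21 did not pass, and their median was 0.05. Of all tested genes 3.67% were called higher and 1.87% lower. *Fyn*, a Src-family kinase, rose from 22.8 ± 0.449 to 33.7 ± 3.07 FPKM (0.56, SE 0.07, adjusted p = 0.00759). *Prkca*, protein kinase C alpha, rose from 11.6 ± 1.23 to 15.2 ± 0.346 FPKM (0.38, adjusted p = 0.0489), and *Snx5*, a sorting nexin of endosomal traffic, from 9.54 ± 0.662 to 12.1 ± 0.501 FPKM (0.34, adjusted p = 0.0469). *Adam10*, the sheddase, was at 16.4, 16.8 and 18.7 FPKM in the controls and 17.98, 19.3 and 11.8 FPKM in cKO replicates 1, 2 and 3, with the last alone below the controls. Of the 7 γ-secretase subunit genes *Psenen* was the only one that passed.

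Of 12 tested protocadherins outside the clusters, 1 rose, where 3.67% of all tested genes were called higher: *Pcdh20* was at 1.67, 1.45 and 1.52 FPKM in the controls and 2.42, 2.76 and 2.505 FPKM in cKO libraries, and its mean rose from 1.55 ± 0.112 to 2.56 ± 0.176 FPKM (0.70, SE 0.12, adjusted p = 0.0203). The other 11 did not pass, and the median of the 12 was 0.07, equal to that of all tested genes.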

How the data were processed

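RNA was sequenced from 6 cortex samples, 3 control and 3 Pen-2 cKO. The authors deposited FPKM per library, per the file headers, with group FPKM, q-values and up or down calls of their own. The submitters' processing notes name the mm10 build. The aligner, counting program, strand setting and authors' test were not given in the sources used here. Each of the 6 per-library tables was identical to the series table. FPKM were turned back into fragments with GENCODE M21 exon lengths (the summed lengths of distinct exons, or for 1 member a single transcript). Values came out within 0.02 of a whole fragment for 89.5% of 24988 values of single-transcript genes and 73.1% of 58835 of other genes, so FPKM stayed the main measure. Intervals and totals of fragments cover no bias of assignment.

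The test was limma 3.58.1 in R 4.3.3 (mean-variance trend, robust variance) on log2(FPKM + 0.1), FPKM as deposited, group as the only term, for the 14147 genes that reached 0.5 FPKM in 3 or more libraries, with Benjamini-Hochberg adjustment over all of them and a threshold of 0.05. The log2(FPKM + 0.1) scale understates changes of low genes. The steps were tested on simulated data. Alternatives varied the pseudocount, filter, scaling, variance model, replicate block and libraries left out. Limma-voom on recovered fragments was added after seeing the data. All 58 member ranges equalled GENCODE M21. The 2 symbols that the table gives to a pair of genes each were resolved by gene ID and position. The name *Pcdha10* is that of RefSeq, where GENCODE M21 also has *Pcdha11*, and *Pcdhgc4* is the GENCODE M21 name.

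Genes were named by rule: the C-type members, called members, and in each cluster the 3 highest by mean FPKM and the 2 largest fitted increases and decreases. In the other lists from which genes were named, they were the called members, or the 2 highest. For markers of cells other than neurons and of proliferation only counts or a sum were given. *Pcdhga1*, *Pcdhga4*, *Pcdhga8*, *Ctcf*, *Setdb1*, *Dnmt1*, *Adam10*, *Stmn3*, *Slc17a7*, *Rbfox3*, *Nefm* and *Gad2* were named after their values were seen. The members and lists were chosen with earlier results of these data known. Python 3.11.15, pandas 2.3.3, NumPy 2.4.6 and matplotlib 3.10.9 served for tables and figures.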

Additional observations from a re-analysis of the deposited data

How the results depend on the processing

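The count of called members, 0, was 1 with median-ratio and with upper-quartile scaling (*Pcdhac2*) and 2 without cKO replicate 3 (*Pcdhb9* and *Pcdhgb8*), so leaving out 1 library gave 0 to 2, and it was 0 under the other alternatives run. Over the 24 named members, 4 of 383 values under the alternatives had an adjusted p under 0.05. All genes called, 783, came to 499 with no filter and to 220 to 842 when 1 library was left out. The higher and lower calls, 519 and 264, were 314 and 343 with median-ratio scaling, 351 and 346 with upper-quartile scaling, and 897 and 243 with equal sums. The beta ratio of summed FPKM, 1.02, was 0.970 and 0.977 with median-ratio and upper-quartile scaling. The cause of these shifts was not tested.

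The titles number the replicates, but deviations of same-numbered samples correlated at 0.06, 0.01 and 0.10, so the numbers were not taken as pairs. With the replicate block 456 genes and 0 members were called. With 3 libraries a group and 10 to 7603 fragments per tested member and library, differences of genes with 1 extreme library could not be resolved.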
